A study of Mus musculus with 41 samples.

Results

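The handling of retinoic acid was followed through 9 genes in mouse embryonic stem cells with and without depletion of the nuclear receptor Esrrb. The genes are the retinol receptor Stra6, the retinoid enzymes Rdh10 and Dhrs3, the retinoic acid carriers Crabp1 and Crabp2, the retinoic acid hydroxylase Cyp26a1, and the receptors Rara, Rarb and Rarg. They were chosen by name for their place in the pathway, and all 9 were found among the 55487 genes of the deposited table. Of these, 8 reached at least 1 CPM, a tag count scaled to the library's total, in at least 3 libraries and were among the 16967 genes tested, whereas Rarb did not reach that level.

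Retinoic acid is made inside cells from retinol, which is first oxidised to retinaldehyde and then to the acid. Carrier proteins bring the acid to its receptors or to the enzymes that destroy it. The receptors sit on DNA as partners of retinoid X receptors, where they hold co-repressors without ligand and co-activators with ligand. In pluripotent cells, retinoic acid is best known as an inducer of differentiation, and several genes of the pathway are themselves switched on by it.

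RNA was profiled by QuantSeq, which sequences tags from the 3′ ends of polyadenylated transcripts, in 41 libraries, all from mouse embryonic stem cells of the E14 background. There were 15 libraries of line KO2 and 11 of line KO3, both genetically depleted of Esrrb, and 15 of the wild-type line (WT, named PGG in the labels). Each line was sampled in 2iL, which is N2B27 medium with CHIR99021, PD0325901 and LIF and keeps cells naive. It was also sampled after 1 day in N2B27 and then 1, 3 or 5 days in AloXR, the medium for formative stem cells. AloXR is N2B27 with 3 ng/ml activin A, 2 µM XAV and 1.0 µM BMS439, an inverse agonist of the retinoic acid receptors, which favours their co-repressor-bound state. All AloXR libraries of all 3 lines therefore received the inverse agonist, and no AloXR medium without it was sampled. Each line had 3 libraries in 2iL and 4 at each AloXR time, apart from KO3 with 2 at day 3 and 2 at day 5. The labels do not say whether the lines are clones, whether libraries of a group came from separate cultures, or whether the B27 supplement held vitamin A. With 1 WT line and 2 depleted lines, the p-values measure the spread between libraries, and Esrrb loss cannot be told apart from other differences between the lines. In these bulk samples, fewer cells with a transcript and less of it per cell cannot be told apart.

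Depth was similar throughout. Libraries held between 3424064 and 5736053 assigned reads (median 4581394), so a count of 0 allows up to 3 reads, or 0.523 to 0.876 CPM, counting error only. In 2iL the libraries numbered 1 and 3 of a line differed more than libraries did elsewhere, with a chi-square per degree of freedom of 19.9 in KO2, 31.8 in KO3 and 27.5 in WT, against 1.599 to 17.99 over the pairs of libraries of an AloXR group. Results that rest on 2iL are therefore given without library 3 as well where a call changed. Differences below are on the log2(CPM + 1) scale, with their standard error (SE). A gene passed the test, or was called, on a limma p, adjusted by Benjamini-Hochberg over all genes tested, under 0.05, together with a 1.5-fold or larger change.

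Esrrb tags followed the KO2 label in 2iL and at day 1 and did not follow the KO3 label at day 1 and day 3. In 2iL, Esrrb was lower than in WT in KO2 (log2 difference −2.74 ± 0.31 (SE); limma, adjusted p = 3.65e-09) and in KO3 (−1.48 ± 0.31; limma, adjusted p = 0.000472). At day 1 it was again lower in KO2 (−1.95 ± 0.27; limma, adjusted p = 4.51e-07). The day 1 libraries labelled KO3 held 41.4, 38.5, 26.1 and 29.4 CPM of Esrrb, against 17.3, 13.1, 17.7 and 12.1 CPM in WT. That difference ran against the label (1.11 ± 0.27; limma, adjusted p = 0.00197), and so did the one at day 3 (1.33 ± 0.33; limma, adjusted p = 0.00256). The labels do not give the deleted stretch, so these tags do not measure functional protein, and KO3 below always means the libraries labelled KO3.

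The promoters of Rarb and Cyp26a1 are shown because both carry the kind of element through which retinoic acid receptors are known to act, in a medium that holds a ligand of these receptors. The search looked for direct repeats of a 6-base unit with 1, 2 or 5 bases between the copies. The units allowed were AGGTCA with its variants GGGTCA for the first base, AGTTCA for the third and GGTTCA for both. The core of the estrogen-related receptor element, AAGGTCA, holds the first of these units and was searched as well. Both strands were read from 250 bases before to 50 bases after each start site in the RefSeq promoter table (build GRCm38.p6). It held 16 promoters for 7 of the 9 genes and none for Crabp2 or Rdh10, so these 2 genes were not searched. The 250 bases before the start are printed from 5′ to 3′ on the gene's strand, with the repeated units in capitals.
Rarb, chr14:16575477-16575726, minus strand: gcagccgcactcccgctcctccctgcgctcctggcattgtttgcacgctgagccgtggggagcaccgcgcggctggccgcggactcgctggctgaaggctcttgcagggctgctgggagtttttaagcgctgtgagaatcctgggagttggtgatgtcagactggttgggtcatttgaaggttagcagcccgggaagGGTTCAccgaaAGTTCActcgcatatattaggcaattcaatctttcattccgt
Cyp26a1, chr19:37697558-37697807, plus strand: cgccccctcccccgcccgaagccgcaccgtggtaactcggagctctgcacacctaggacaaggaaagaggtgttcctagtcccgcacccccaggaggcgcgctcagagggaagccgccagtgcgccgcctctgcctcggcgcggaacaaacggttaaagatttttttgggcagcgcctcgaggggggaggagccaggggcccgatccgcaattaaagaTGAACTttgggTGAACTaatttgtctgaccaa

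In both promoters the units are 5 bases apart. The Rarb element reads in the direction of the gene, and the Cyp26a1 element reads on the opposite strand, so the printed strand shows its reverse complement. A repeat with 5 bases between occurred in 32 of 32851 promoters of the table (0.0974%). Repeats with 1 base between occurred in 0.222% of promoters, repeats with 2 bases between in 0.268%, and AAGGTCA in 4.72%, and none of these was found in the 16 promoters. A match is a description of letters, and the data hold no measurement of receptor binding.

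Stra6, the cell-surface receptor that takes up retinol from its plasma carrier protein, was close to the detection limit (ENSMUSG00000032327, chromosome 9, 58063788 to 58153996, GRCm38). It was represented by 78 reads over all 41 libraries, and its highest value was 1.69 CPM, in KO3 at day 5. In 2iL, KO2 held 0.584, 0.609 and 0.628 CPM and KO3 held 0.445, 0.200 and 0 CPM, against 0 CPM in all 3 WT libraries. All 6 values of the depleted lines lay at or under the limit that a count of 0 allows in a library, and the difference did not pass the test (0.47 ± 0.23; limma, adjusted p = 0.134).

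Rdh10, which oxidises retinol to retinaldehyde in the step that limits retinoic acid synthesis in the embryo, rose after 2iL in WT and over the depleted lines (ENSMUSG00000025921, chromosome 1, 16105774 to 16133734). In KO2 it averaged 5.39 ± 0.98 CPM in 2iL (SD, n = 3), then 10.2 ± 1.86, 10.8 ± 2.5 and 9.14 ± 0.91 CPM at day 1, 3 and 5 (n = 4 each). In KO3 the means at the same 4 times were 3.69 ± 1.65, 9.73 ± 1.31, 13.5 ± 0.82 and 13.5 ± 1.77 CPM (n = 2 at the later 2 times). In WT they were 4.87 ± 0.97, 7.99 ± 0.96, 9.17 ± 1.45 and 12.99 ± 4.24 CPM. From 2iL to day 5 the rise was 1.18 ± 0.18 on the log2 scale in the depleted lines (limma, adjusted p = 1.64e-07) and 1.21 ± 0.23 in WT (adjusted p = 1.5e-05). The rises differed by −0.03 ± 0.29 (adjusted p = 0.965), and Rdh10 passed the test against WT at none of the 4 times. The smaller rise of WT at day 1 (0.62 ± 0.23; limma, adjusted p = 0.0215) was lost without library 3 of 2iL in each line (0.55, adjusted p = 0.0638), and also without WT library 1 or 3 of 2iL or WT library 2 of day 1.

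Dhrs3, which works against Rdh10 by reducing retinaldehyde back to retinol and is known to be induced by retinoic acid, rose late in WT (ENSMUSG00000066026, chromosome 4, 144892827 to 144928209). At day 5 it held 2.96, 0.946, 0 and 1.42 CPM in KO2 and 0.966 and 0.906 CPM in KO3, against 9.82, 9.31, 6.59 and 6.33 CPM in WT. All 6 libraries of the depleted lines lay below all 4 of WT. The difference was −2.15 ± 0.28 (limma, adjusted p = 9.3e-08), with −2.09 ± 0.30 in KO2 and −2.20 ± 0.37 in KO3. Before day 5 each depleted line overlapped WT, and the means of the 3 lines lay between 0.456 and 2.58 CPM. At day 3, both KO3 libraries were above all 4 of KO2, by a difference that did not pass the test (0.53 ± 0.37; limma, adjusted p = 0.402). Over the depleted lines, it rose from 2iL to day 3 (0.80 ± 0.25; limma, adjusted p = 0.00642), when it held 1.83, 1.01, 1.67 and 0.970 CPM in KO2 and 2.88 and 1.95 CPM in KO3. Their change from 2iL at day 5 did not pass (0.32 ± 0.25; limma, adjusted p = 0.29). In WT, Dhrs3 rose from day 1 to day 3 (0.91 ± 0.30; limma, adjusted p = 0.0216) and again from day 3 to day 5 (1.36 ± 0.30; adjusted p = 0.000915). The genes around Dhrs3 were also slightly lower in KO2 at day 5, with a median of −0.32 over the 40 nearest measured genes, and stood at −0.07 in KO3. The fold changes of Dhrs3 itself were larger in both lines.

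**Figure D1:**
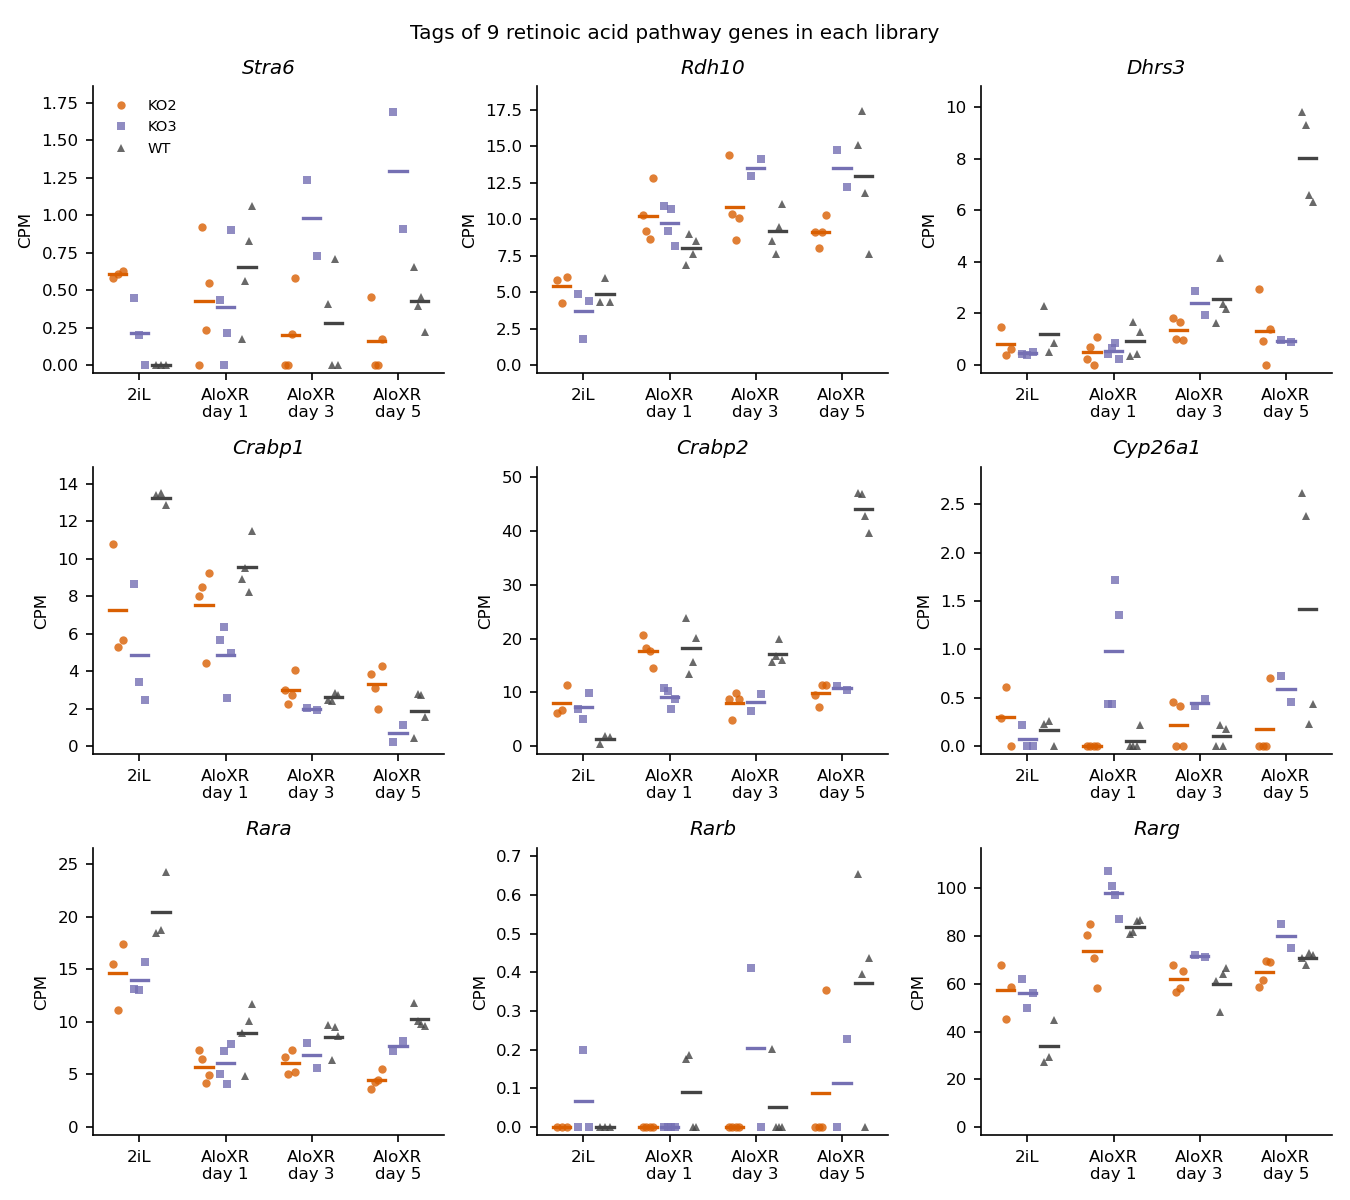
Tags of the 9 genes in CPM (linear axes that start at 0, a separate scale for each gene) in each library, by medium and time, with KO2 (circles), KO3 (squares) and WT (triangles) side by side and a bar at each mean. Crabp2 and Dhrs3 of WT at day 5 stand clear of both depleted lines, at 39.7 to 47.1 and 6.33 to 9.82 CPM, and Crabp2 is lower in WT than in the depleted lines in 2iL.

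Crabp1 and Crabp2 are small cytoplasmic proteins that bind retinoic acid. Crabp2 is known to hand it to the receptors in the nucleus, and Crabp1 has been linked to its breakdown. Along the course in WT, Crabp1 tags fell and Crabp2 tags rose. Crabp1 had 10.8, 5.28 and 5.65 CPM in KO2 and 8.68, 3.41 and 2.44 CPM in KO3 in 2iL, against 13.4, 13.5 and 12.9 CPM in WT (ENSMUSG00000032291, chromosome 9, 54764748 to 54773110). All 6 values of the depleted lines lay under the 3 of WT, though library 1 of each depleted line came closest. The difference was −1.15 ± 0.29 (limma, adjusted p = 0.00234). It passed in KO3 alone (−1.44 ± 0.33, adjusted p = 0.00126) and missed in KO2 alone (−0.85 ± 0.33, adjusted p = 0.0566).

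Crabp1 then fell along the course. KO2 averaged 7.24 ± 3.09 CPM in 2iL (SD, n = 3), then 7.56 ± 2.15, 3.01 ± 0.77 and 3.30 ± 0.99 CPM at day 1, 3 and 5 (n = 4 each). KO3 averaged 4.84 ± 3.36, 4.89 ± 1.64, 2.00 ± 0.08 and 0.687 ± 0.63 CPM (n = 2 at the later 2 times). WT averaged 13.3 ± 0.35, 9.56 ± 1.40, 2.60 ± 0.22 and 1.87 ± 1.11 CPM. The change from 2iL at day 5 was −1.30 ± 0.24 over the depleted lines, which started lower (limma, adjusted p = 1e-05), and −2.42 ± 0.31 in WT (adjusted p = 6.44e-09). Against WT, the depleted lines did not pass at day 1 (−0.61 ± 0.25, adjusted p = 0.0743), though KO3 alone did (−0.88 ± 0.29, adjusted p = 0.0197), nor at day 3 or day 5 (adjusted p = 0.903 and 0.951).

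Crabp2 differed from WT in both depleted lines at 3 of the 4 times, and the sign of the difference turned between 2iL and day 3 (ENSMUSG00000004885, chromosome 3, 87948666 to 87953376). In 2iL it gave 6.13, 6.70 and 11.3 CPM in the KO2 libraries and 6.90, 5.01 and 9.94 CPM in those of KO3, against 0.455, 1.82 and 1.72 CPM in WT. Every library of the depleted lines was above every WT library, and the difference was 1.91 ± 0.22 on the log2 scale (limma, adjusted p = 2.8e-09). Without library 3 of each line it was 1.82 (adjusted p = 9.17e-08).

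At day 1, KO2 had 20.6, 18.2, 17.7 and 14.4 CPM of Crabp2 and KO3 10.9, 10.3, 6.86 and 8.81 CPM, against 23.8, 13.5, 15.7 and 20.04 CPM in WT. KO2 overlapped WT, with a difference of −0.02 ± 0.22 (limma, adjusted p = 0.971). KO3 lay below all libraries of the other 2 lines (−0.90 ± 0.22 against WT, adjusted p = 0.00178). At day 3 the values were 8.68, 4.79, 9.80 and 8.73 CPM in KO2 and 6.58 and 9.73 CPM in KO3, against 15.6, 16.8, 19.9 and 16.1 CPM in WT. Both depleted lines were now below WT without overlap, by −1.02 ± 0.20 (limma, adjusted p = 0.000154).

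At day 5, Crabp2 held 9.56, 7.33, 11.4 and 11.3 CPM in KO2 and 11.1 and 10.4 CPM in KO3, against 47.1, 47.0, 42.7 and 39.7 CPM in WT. The difference was −2.001 ± 0.20 (limma, adjusted p = 2.24e-10), with −2.06 ± 0.22 in KO2 and −1.94 ± 0.27 in KO3. Along the course, Crabp2 of KO2 rose at day 1 (1.08 ± 0.24, adjusted p = 0.000251) and fell again from day 1 to day 3 (−1.09 ± 0.22, adjusted p = 0.000259). In KO3 the change from 2iL to day 1 was 0.33 ± 0.24 (adjusted p = 0.277). In WT, it rose in 2 steps, by 3.08 ± 0.24 from 2iL to day 1 (adjusted p = 5.6e-15) and by 1.32 ± 0.22 from day 3 to day 5 (adjusted p = 1.65e-05), with no detectable step between day 1 and day 3 (−0.06 ± 0.22, adjusted p = 0.89). The genes around Crabp2 moved little, with medians between −0.10 and 0.06 over the 40 nearest measured genes in either line at any time.

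Counted together, Crabp1 and Crabp2 tags changed makeup along the course. Crabp2 supplied 36.2 to 66.7% of the pair's tags in KO2 and 44.3 to 80.3% in KO3 in 2iL, against 3.28 to 11.9% in WT. At day 5 its share was 70.5 to 85.0% in KO2 and 90.2 to 97.9% in KO3, against 94 to 99.1% in WT. In WT the mean share was 8.97%, 65.1%, 86.8% and 95.95% from 2iL to day 5. These shares rest on 90 to 858 tags per group and are given as a description.

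**Figure D2:**
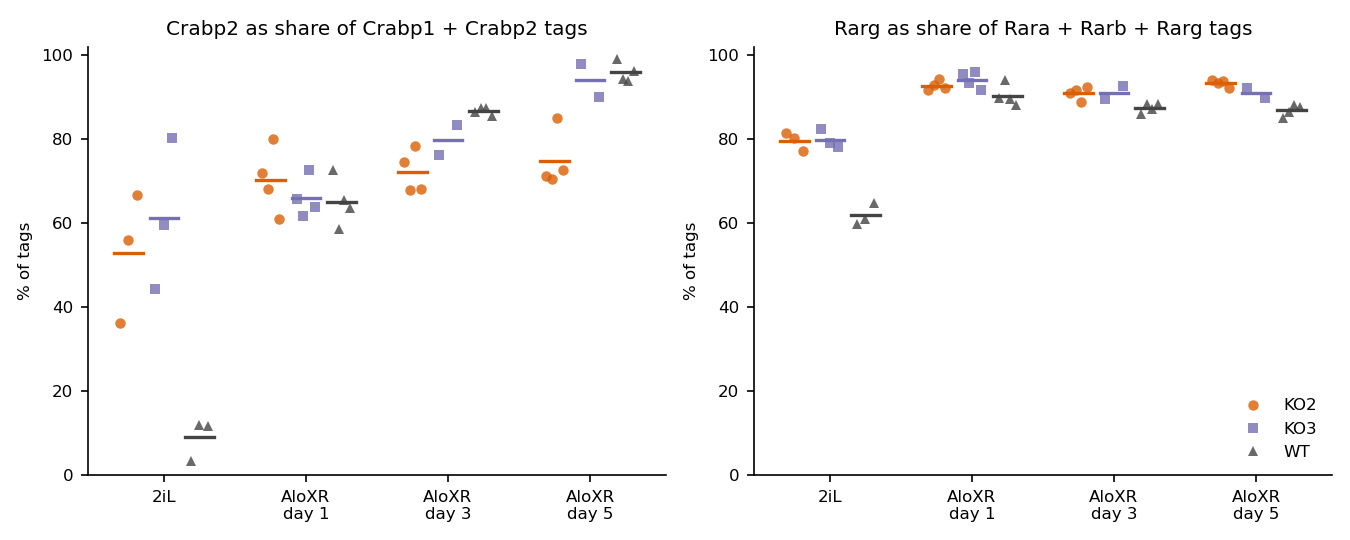
Share of Crabp2 in the tags of Crabp1 and Crabp2 (left) and of Rarg in the tags of Rara, Rarb and Rarg (right), in percent of tags (axes from 0), for each library of KO2, KO3 and WT by medium and time, with a bar at each mean. In 2iL, both shares lie higher in KO2 and KO3 than in WT, at 36.2% or more against at most 11.9% for Crabp2 and at 77.1% or more against at most 64.9% for Rarg.

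Cyp26a1, which hydroxylates retinoic acid for clearance and is a classical direct target of the receptors, stayed near the limit of detection with 72 reads in 23 libraries (ENSMUSG00000024987, chromosome 19, 37697798 to 37701536). At day 5 it had 0, 0, 0 and 0.709 CPM in KO2 and 0.725 and 0.453 CPM in KO3, against 2.62, 2.38, 0.227 and 0.436 CPM in WT. The WT values split into 2 high and 2 low libraries, and the low ones overlap the depleted lines. The difference passed the test (−0.68 ± 0.24; limma, adjusted p = 0.0233), but was lost with edgeR and with DESeq2 and without either of the 2 high WT libraries or library 2 of KO3. A pseudocount of 5 CPM and a fit of the compared groups alone also ended the call.

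At day 1, Cyp26a1 was seen in KO3, at 0.435, 0.437, 1.71 and 1.35 CPM. It was at 0 in all 4 KO2 libraries, and WT held 0, 0, 0 and 0.213 CPM. KO3 was higher than KO2 (0.93 ± 0.25; limma, adjusted p = 0.00523) and than WT (0.86 ± 0.25, adjusted p = 0.00976). The difference from KO2 was lost with DESeq2 and with a pseudocount of 5 CPM. Markers of primitive and visceral endoderm were read beside it. The summed level of 11 such markers was 14.6, 16.2, 58.9 and 61.2 CPM in those KO3 libraries in the same order, so the 2 libraries with most Cyp26a1 also held most of these tags. The sum was 11.3 to 19.1 CPM in KO2 and 5.25 to 7.67 CPM in WT, and no marker of the list was at 0 in any of the 3 groups. In other groups the 2 levels parted. WT libraries 1 and 2 of day 5 held 2.62 and 2.38 CPM of Cyp26a1, with marker sums of 7.20 and 4.95 CPM. KO3 at day 3 and day 5 held 0.411 to 0.725 CPM of Cyp26a1, with sums of 51.3 to 64.7 CPM. The part of such cells in the Cyp26a1 result was not tested. At day 5, when Stra6 was higher in KO3 than in KO2 (0.99 ± 0.28; limma, adjusted p = 0.0101), the sum was 62.5 to 64.7 CPM in KO3 and 7.57 to 16.3 CPM in KO2, with Sox7 and Hnf4a at 0 in KO2, and its part in that result was not tested either. That Stra6 difference rested on 11 reads in KO3 and 3 in KO2, and it was lost with edgeR, with DESeq2 and without library 1 of KO3.

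Of the receptors, Rarg supplied most tags, Rara fewer and Rarb almost none. Rara was highest in 2iL and fell in WT and over the depleted lines (ENSMUSG00000037992, chromosome 11, 98927818 to 98974942). In WT it averaged 20.5 ± 3.27 CPM in 2iL (SD, n = 3), then 8.91 ± 2.93, 8.56 ± 1.55 and 10.3 ± 1.00 CPM (n = 4 each). At day 5 the fall was −1.14 ± 0.18 in the depleted lines (limma, adjusted p = 3.68e-07) and −0.92 ± 0.23 in WT (adjusted p = 0.000732), and the falls differed by −0.23 ± 0.29 (adjusted p = 0.631).

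Rara was lower in the depleted lines at day 5, at 3.64, 4.26, 4.45 and 5.49 CPM in KO2 and 7.25 and 8.15 CPM in KO3, against 11.8, 10.1, 9.78 and 9.60 CPM in WT. The groups did not overlap, and the difference was −0.72 ± 0.20 (limma, adjusted p = 0.00407). KO2 passed alone (−1.06 ± 0.21, adjusted p = 0.000167) and KO3 did not (−0.38 ± 0.26, adjusted p = 0.277). Quantile scaling ended the call, and so did a pseudocount of 5 CPM.

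Rarb was represented by 16 reads in 10 libraries (ENSMUSG00000017491, chromosome 14, 16430839 to 16819156). WT at day 5 held 7 of them, at 0.654, 0.396, 0 and 0.436 CPM, against 2 reads in KO2 and 1 in KO3. Without a filter on low values it was not called in any of 17 comparisons. Its highest group mean was 0.433 on the log2(CPM + 1) scale, in WT at day 5. No difference in level between groups could therefore reach the 0.58 that a call needs, and the lack of calls carries no information. Rarb gave 0.43 ± 0.12 for WT at day 5 against 2iL (limma, adjusted p = 0.00416). For the depleted lines against WT at day 5, Rarb gave −0.30 ± 0.10 (limma, adjusted p = 0.0352). Its 3′ end lies inside Top2b on the opposite strand, a gene with 25715 reads, and no source used here states whether strand was used in counting, so these reads cannot be assigned to Rarb with certainty.

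Rarg, the receptor with most tags in these cells, started higher in the depleted lines and rose at day 1 in KO3 and in WT (ENSMUSG00000001288, chromosome 15, 102234938 to 102257517). In 2iL it had 67.8, 45.5 and 58.6 CPM in KO2 and 61.8, 49.9 and 56.1 CPM in KO3, against 27.3, 29.4 and 44.8 CPM in WT. The lowest depleted library was just above the highest WT library. The difference was 0.75 ± 0.13 (limma, adjusted p = 1.72e-05), and 0.95 without library 3 of each line. From day 1 on the difference over both lines did not pass the test, with values of 0.01 ± 0.11 at day 1, 0.16 ± 0.12 at day 3 and 0.02 ± 0.12 at day 5 (limma, adjusted p between 0.364 and 0.962). The mean of KO2 was 57.3 ± 11.2 CPM in 2iL (SD, n = 3), then 73.6 ± 11.7, 62.02 ± 5.48 and 64.8 ± 5.47 CPM at day 1, 3 and 5 (n = 4 each). In KO3 the means were 55.95 ± 5.98, 98.1 ± 8.44, 71.6 ± 0.80 and 79.99 ± 7.11 CPM (n = 2 at the later 2 times), and in WT 33.9 ± 9.57, 83.8 ± 3.03, 60.0 ± 8.34 and 70.9 ± 2.18 CPM. From 2iL to day 1 the change was 0.36 ± 0.14 in KO2, under 1.5-fold (limma, adjusted p = 0.036), 0.80 ± 0.14 in KO3 (adjusted p = 7.09e-06) and 1.32 ± 0.14 in WT (adjusted p = 8.21e-11). Over both depleted lines it was 0.58 ± 0.10 (adjusted p = 2.69e-06), a 1.496-fold change that just missed the 1.5-fold limit.

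Rarg gave 77.1 to 81.4% of the receptor tags in KO2 and 78.2 to 82.5% in KO3 in 2iL, against 59.7 to 64.9% in WT. At day 5 the shares were 92.2 to 94.2% in KO2 and 89.9 to 92.1% in KO3, against 85.0 to 88.2% in WT.

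The order of the 12 groups in each gene mostly consisted of overlapping neighbours. Of 11 neighbouring pairs in the order of means, 3 were separated in Crabp2, 2 each in Dhrs3, Crabp1, Rara and Rarg, 1 in Rdh10, and 0 in Stra6, Cyp26a1 and Rarb. WT at day 5 was alone at the top in Crabp2 (44.1 ± 3.57 CPM) and Dhrs3 (8.01 ± 1.81 CPM), and WT in 2iL was alone at the top in Crabp1 and Rara. KO3 at day 1 was alone at the top in Rarg (98.1 ± 8.44 CPM), with its lowest library at 87.2 CPM, against 86.5 CPM in the highest library of WT at day 1.

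The counts of called genes set the 8 tested genes beside all 16967. Against WT, the depleted lines had 2 genes higher (Crabp2, Rarg) and 1 lower (Crabp1) in 2iL, where 15.7% of all genes were called. At day 1, 0 of the 8 were called, against 11.8% of all genes. There, 3 of the 8 had an unadjusted p under 0.05 with limma. Of these, 1 also had an adjusted p under 0.05, with a change under 1.5-fold. With edgeR and with DESeq2, 0 were called as well. At day 3, 1 was lower (Crabp2), against 17.3% of all genes. At day 5, 4 were lower (Dhrs3, Crabp2, Cyp26a1, Rara), against 20.6% of all genes. The part called among the 8 thus lay above the background in 2iL and at day 5 and near or under it at day 3 and day 1. With 8 genes this is a description.

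Taken line by line, KO2 differed from WT in 2 of the 8 in 2iL (17.8% of all genes), 0 at day 1 (13.5%; 1 had an unadjusted p under 0.05 with limma), 1 at day 3 (14.3%) and 4 at day 5 (16.8%). KO3 differed from WT in 3 in 2iL (13.2%), 3 at day 1 (15.4%), 1 at day 3 (19%) and 2 at day 5 (25.5%). Crabp2 accounts for 7 of these 16 calls, the sole exception being KO2 at day 1. KO3 differed from KO2 in 0 of the 8 in 2iL (7.24%), 2 at day 1 (Cyp26a1 higher, Crabp2 lower, 15%), 0 at day 3 (7.69%) and 2 at day 5 (Stra6 higher, Crabp1 lower, 14.1%). That Crabp1 difference (−1.37 ± 0.35; limma, adjusted p = 0.00472) was lost without library 1 of KO3. Between KO3 and KO2 in 2iL and at day 3, 1 gene each had an unadjusted p under 0.05, and edgeR and DESeq2 called 0.

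**Figure D3:**
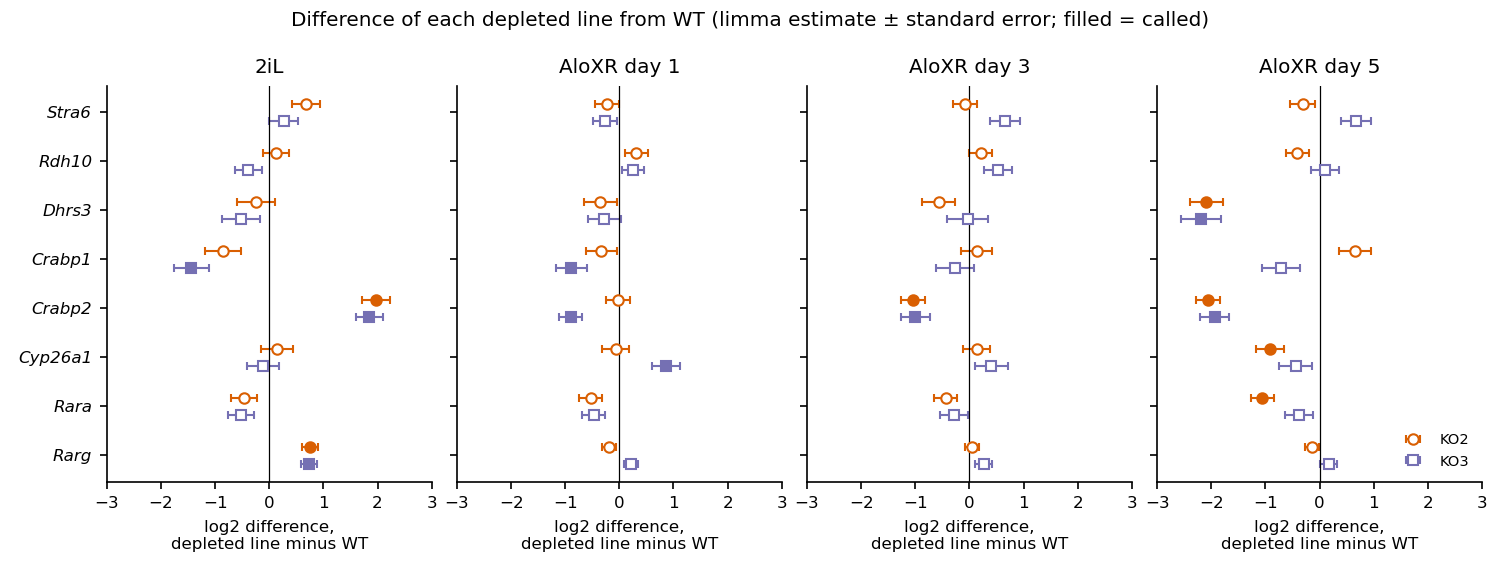
Log2 difference of KO2 (circles) and KO3 (squares) from WT on the log2(CPM + 1) scale for the 8 tested genes, with the standard error of the limma fit, in 2iL and at AloXR day 1, 3 and 5. Filled symbols were called. Crabp2 of both lines lies right of 0 in 2iL and left of it at day 3 and day 5, and Dhrs3 lies far left at day 5.

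The course from 2iL changed a larger share of all genes. The depleted lines had 3 of the 8 called at day 1 (Rdh10 and Crabp2 higher, Rara lower) against 32.3% of all genes, and 4 at day 3 (Rdh10 and Dhrs3 higher, Crabp1 and Rara lower) against 38.3%. At day 5 they had 3 (Rdh10 higher, Crabp1 and Rara lower) against 39.3%. In WT, 5 of the 8 were called at day 1 (Stra6, Rdh10, Crabp2 and Rarg higher, Rara lower), where 36.4% of all genes were called. The Stra6 call (0.70 ± 0.24; limma, adjusted p = 0.0168) rests on 13 reads against 0 and was lost without WT library 4 of day 1. At day 3, 5 were called (Rdh10, Crabp2 and Rarg higher, Crabp1 and Rara lower) against 41.7%. At day 5, 7 were called (Rdh10, Dhrs3, Crabp2, Cyp26a1 and Rarg higher, Crabp1 and Rara lower) against 39.4%. The Cyp26a1 call (0.90 ± 0.27; limma, adjusted p = 0.00542) was lost without WT library 1 of day 5. That call was also lost with DESeq2, with a pseudocount of 5 CPM and with a fit of the compared groups alone. In KO2, 3 were called at day 1 against 2iL (Rdh10 and Crabp2 higher, Rara lower; 30.2%) and 2 from day 1 to day 3 (Crabp1 and Crabp2 lower; 12.2%). Between steps in WT, 2 were called from day 1 to day 3 (Dhrs3 higher, Crabp1 lower; 18.7% of all genes) and 3 from day 3 to day 5 (Dhrs3, Crabp2 and Cyp26a1 higher; 13.9%).

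Whether a change from 2iL differed between the depleted lines and WT was tested by itself, and Crabp2 showed the largest such differences. Its change was smaller in the depleted lines by −2.37 ± 0.29 at day 1, −2.93 ± 0.30 at day 3 and −3.91 ± 0.30 at day 5 (limma, adjusted p = 5.66e-08, 4.03e-10 and 1.06e-13). Rarg changed less by −0.74 ± 0.17, −0.59 ± 0.18 and −0.73 ± 0.18 at day 1, 3 and 5 (adjusted p = 0.00249, 0.0164 and 0.00217), beside its higher level in the depleted lines in 2iL. The day 3 call of Rarg was lost when any of 11 of the 19 libraries was omitted. Dhrs3 differed at day 5 (−1.76 ± 0.41, adjusted p = 0.00153), a call that edgeR and DESeq2 did not make. Crabp1 fell less in the depleted lines at day 3 (1.08 ± 0.39, adjusted p = 0.0495) and at day 5 (1.11 ± 0.39, adjusted p = 0.0365). Neither Crabp1 call held with edgeR, with DESeq2 or without library 3 of 2iL, where the values were 0.89 and 0.92, and omitting any of 16 of the 19 libraries at day 3 or 11 of the 19 at day 5 also ended it. In all, 2 of the 8 were called at day 1 (9.15% of all genes), 3 at day 3 (14.8%) and 4 at day 5 (17.9%). The 3 differences at different days share their 2iL libraries.

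Other genes of retinoid uptake, storage and transport were read from a list of 10, of which 7 were tested. Against WT, 2 were higher and 1 lower in the depleted lines in 2iL (15.7% of all genes called), 0 were called at day 1 (11.8%), 2 were higher at day 3 (17.3%) and 1 at day 5 (20.6%). The shares at day 1 and day 5 were thus under the background. Fabp5, a fatty acid carrier that can also bind retinoic acid, was lower in 2iL (−1.23 ± 0.27; limma, adjusted p = 0.00115) and higher at day 5 (1.09 ± 0.26, adjusted p = 0.00141), so its differences had the opposite sign to those of Crabp2 at both times. In 2iL its mean level was 8.83 CPM in KO2 and 1.65 CPM in KO3, against 10.1 CPM in WT. Its mean level at day 5 was 251.5 CPM in KO2 and 181 CPM in KO3, against 99.3 CPM in WT.

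Of 17 further genes of retinaldehyde and retinoic acid synthesis, 11 were tested. Against WT, the depleted lines had 2 higher and 1 lower in 2iL (15.7% of all genes called), 1 and 1 at day 1 (11.8%), 1 and 1 at day 3 (17.3%), and 1 and 0 at day 5 (20.6%). At day 3 this was near the background and at day 5 under it. Adh1, an alcohol dehydrogenase that can oxidise retinol, was higher in 2iL (1.61 ± 0.30; limma, adjusted p = 4.52e-05), and Dhrs4, a retinal reductase, was lower (−0.92 ± 0.25, adjusted p = 0.00584), at 9.53 CPM in KO2 and 2.69 CPM in KO3, against 10.8 CPM in WT. Aldh1a2, which makes retinoic acid from retinaldehyde, was detected mainly in 2iL, at mean levels of 3.50 CPM in KO2, 1.71 CPM in KO3 and 2.65 CPM in WT. It fell from 2iL, by −1.44 ± 0.19 at day 5 in the depleted lines (limma, adjusted p = 1.29e-08) and by −1.65 ± 0.25 in WT (adjusted p = 2.1e-07). Rdh11, a retinal reductase, rose at day 5 by 1.30 ± 0.13 in the depleted lines and by 1.82 ± 0.16 in WT (adjusted p = 3.15e-12 and 2.99e-13).

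Of the other 2 hydroxylases, Cyp26c1 was at 0 in every group mean and Cyp26b1 was tested. Cyp26b1 was higher than WT in the depleted lines at day 3 (0.97 ± 0.22; limma, adjusted p = 0.000715) and day 5 (0.95 ± 0.22, adjusted p = 0.000793). Its mean level at day 3 was 0.374 CPM in KO2 and 2.09 CPM in KO3, against 0.0452 CPM in WT. At day 5 it was 0.30 CPM in KO2 and 3.00 CPM in KO3, against 0.159 CPM in WT. KO3 was higher than KO2 at day 3 (1.17 ± 0.29; limma, adjusted p = 0.00593) and at day 5 (1.61 ± 0.29; adjusted p = 8.09e-05). The means of KO2 and WT at both times lay under the 0.523 to 0.876 CPM that a count of 0 allows in a library. The endoderm marker sum at day 3 was 8.91 to 18.2 CPM in KO2 and 51.3 to 51.4 CPM in KO3, against 6.29 to 9.72 CPM in WT, with Sox7 and Hnf4a at 0 in KO2 and Hnf4a at 0 in WT. At day 5 the sum was 7.57 to 16.3 CPM in KO2 and 62.5 to 64.7 CPM in KO3, against 4.95 to 8.95 CPM in WT, with Sox7 and Afp at 0 in WT. Endoderm was not the only marker list highest in KO3. The trophoblast sum at day 3 averaged 113 CPM in KO3 and 66.0 CPM in KO2, against 33.2 CPM in WT, with Cdx2 and Elf5 at 0 in WT. The mesendoderm, neuroectoderm and fibroblast sums were not highest in KO3 at that time. At day 5 the trophoblast sum averaged 77.7 CPM in KO3 and 28.83 CPM in KO2, against 20.97 CPM in WT. Elf5 was at 0 in KO3 and WT, and Hand1 in WT. The neuroectoderm sum at day 5 averaged 324.1 CPM in KO3 and 247.6 CPM in KO2, against 194.3 CPM in WT. The mesendoderm mean was also highest in KO3 then (26.22 CPM), within the 7.969 to 30.83 CPM of KO2. The fibroblast mean was highest in WT (43.37 CPM). The part of any such cells in the Cyp26b1 result was not tested. Of 3 retinoid X receptors, all were tested and only Rxrg was called against WT, higher at day 5 (1.12 ± 0.30; limma, adjusted p = 0.0029). Its level there was low, at means of 1.68 CPM in KO2 and 2.80 CPM in KO3, against 0.381 CPM in WT. Of all genes, 15.7% were called in 2iL, 11.8% at day 1, 17.3% at day 3 and 20.6% at day 5. Of 12 co-regulators, all were tested. Gps2, a co-repressor subunit, was higher in 2iL (0.81 ± 0.20; limma, adjusted p = 0.00282). Ncoa2, a co-activator, was lower at day 5 (−0.63 ± 0.16, adjusted p = 0.00158), with no call at day 1 or day 3. These were the only calls of the 12 against WT, a share under that of all genes at each time. Along the course the co-activators Ncoa1 and Ncoa3 and the ligand-dependent co-repressor Nrip1 fell at all 3 days in both the depleted lines and WT. Ep300 of the same list averaged 85.15 CPM in KO2, 84.9 CPM in KO3 and 81.75 CPM in WT in 2iL. It averaged 122.3 to 154 CPM over the AloXR groups. Of the 12, the depleted lines had 1 higher and 3 lower at day 1 (32.3% of all genes called), 2 and 3 at day 3 (38.3%), and 2 and 3 at day 5 (39.3%). WT had 1 and 3 (36.4%), 3 and 3 (41.7%), and 0 and 3 (39.4%).

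Known retinoic acid target genes were read from a list of 36, of which 29 were tested. In the depleted lines against 2iL, 5 were higher and 14 lower at day 1 (32.3% of all genes called), 11 and 13 at day 3 (38.3%), and 12 and 14 at day 5 (39.3%). In WT, 8 were higher and 16 lower at day 1 (36.4%), 8 and 16 at day 3 (41.7%), and 9 and 13 at day 5 (39.4%). The medians in the depleted lines were −0.54, 0.13 and −0.03 at day 1, 3 and 5, beside 0.01, 0.06 and 0.06 over all genes. In WT they were −1.25, −1.23 and −0.32, beside 0.03, 0.03 and 0.09. Cdx1, a homeobox gene with a retinoic acid response element in mouse, stood at mean levels of 51.2 CPM in KO2, 46.8 CPM in KO3 and 35.2 CPM in WT in 2iL, and at 0.11 CPM or less in every AloXR group. Stra8, the meiosis regulator named for its retinoic acid response, and the homeobox genes Hoxb4, Hoxd4 and Meis2 fell at all 3 days in both the depleted lines and WT. Several of these genes also respond to other signals that differ between 2iL and AloXR, so the list does not measure receptor activity alone.

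**Figure D4:**
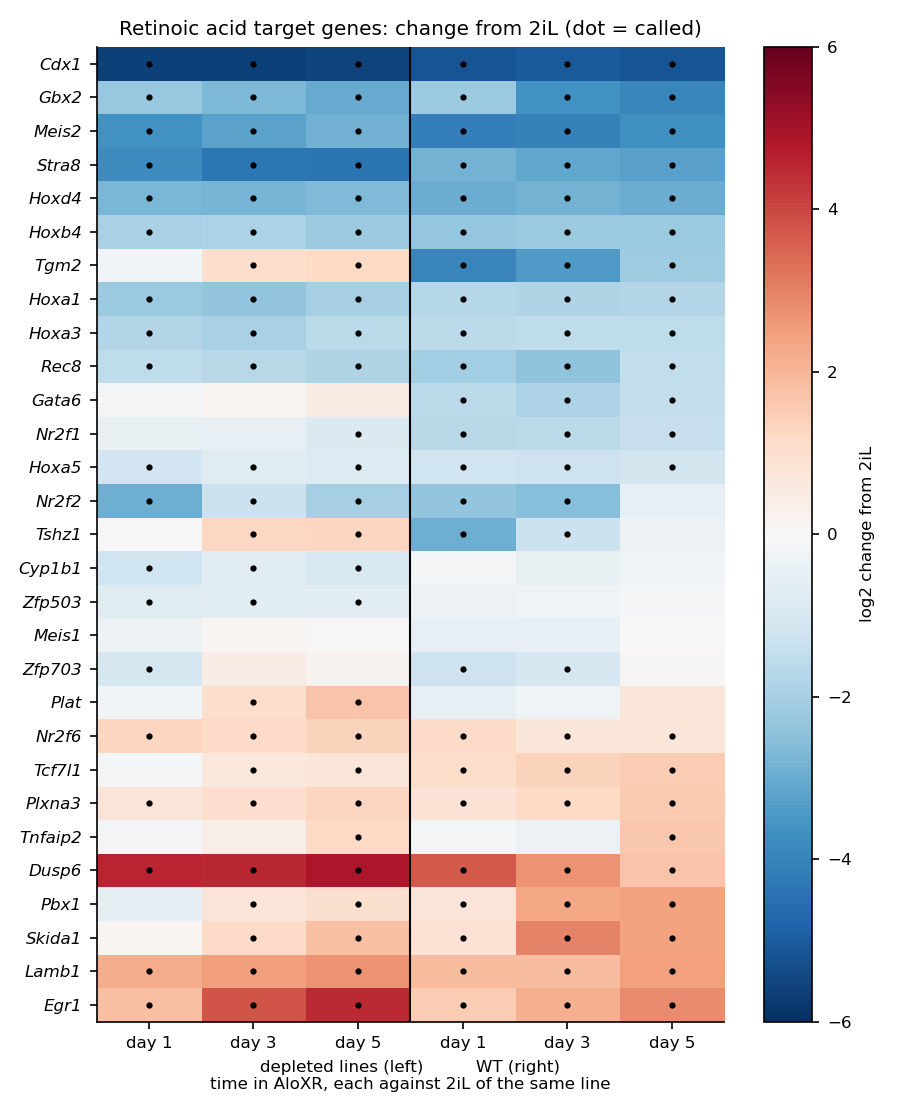
Log2 change from 2iL on the log2(CPM + 1) scale at AloXR day 1, 3 and 5 for the 29 tested retinoic acid target genes, in the depleted lines (left 3 columns) and in WT (right 3 columns), ordered by the change in WT at day 5. Dots mark called changes. Cdx1, Gbx2, Meis2, Stra8, Hoxd4 and Hoxb4 are lower in all columns, and Tgm2 and Tshz1 are lower in WT at day 1 and day 3 but higher in the depleted lines at day 3.

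Against WT, the depleted lines had 6 of the 29 targets higher and 2 lower in 2iL (15.7% of all genes called), 4 and 1 at day 1 (11.8%), 10 and 1 at day 3 (17.3%), and 4 and 2 at day 5 (20.6%). The share at day 5 was close to the background. The endoderm markers stood higher in KO3 at day 3 as well, as given above, and their part in these counts was not tested. The medians were 0.15, 0.32, 0.46 and 0.18, beside 0.04, 0.02, 0.03 and 0.00 over all genes. Tgm2, a transglutaminase induced by retinoic acid in many cells, was lower in 2iL (−2.11 ± 0.35; limma, adjusted p = 1.22e-05) and higher at day 3 (2.30 ± 0.33, adjusted p = 7.67e-07). Its mean level in 2iL was 5.55 CPM in KO2 and 6.50 CPM in KO3, against 39.4 CPM in WT. At day 3 it was 11.99 CPM in KO2 and 13.8 CPM in KO3, against 1.85 CPM in WT. Nr2f2, an orphan nuclear receptor, was higher at day 3 (2.45 ± 0.30, adjusted p = 1.2e-08), and Skida1 was lower at that time (−2.37 ± 0.22, adjusted p = 1.69e-11). Dusp6, a phosphatase that also responds to ERK signalling, was higher at day 5 (2.58 ± 0.20, adjusted p = 1.76e-11). The list also holds Gata6, an endoderm marker, which at day 5 averaged 0.406 CPM in KO2 and 14.5 CPM in KO3, against 0.654 CPM in WT.

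Genes with a pattern like that of each of the 8 tested genes were sought over the 12 group means, as a description. The search covered 11976 genes with a mean of at least 5 CPM in some group. The groups share lines and libraries, so Pearson's r is given without a test. Prkd2 was most like Crabp2 (r = 0.916), followed by Efr3b (0.873) and Kif21a (0.872). Sugct was most like Dhrs3 (r = 0.958), and Dhtkd1 most like Rara (0.976). Lmln was most like Rdh10 (r = 0.969), Trim13 most like Crabp1 (0.947) and Bicdl1 most like Rarg (0.939). For Stra6 and Cyp26a1, which had few reads, the leading genes were E330037G11Rik (0.869) and Esyt2 (0.891). Kif21a, for example, averaged 43.9 CPM in KO2 and 40.9 CPM in KO3 at day 5, against 92.2 CPM in WT.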

How the data were processed

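The submitters' processing notes name STAR 2.7.6a, featureCounts 2.0.1 of Subread and the build GRCm38. The annotation and the strand setting are not given in the sources used here. The authors deposited values in CPM, scaled to each library's assigned reads, without length scaling or logs. Whole reads were recovered from the CPM steps (100% of 766190 values above 0 were whole within 0.01 reads), and no sample column was left unused. Replicate libraries differed beyond counting noise in each of 53 pairs within groups (chi-square per degree of freedom at least 1.599), so each was kept as its own library.

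Values were analysed as log2(CPM + 1), which understates changes of low genes, keeping genes that reached 1 CPM in 3 or more libraries. One mean per line and time was fitted over all 41 libraries with limma 3.58.1 in R 4.3.3 (trend, robust variances, 29 residual degrees of freedom). Adjustment was by Benjamini-Hochberg over all 16967 genes. Where both depleted lines were averaged, a call also required the same direction in both. Errors of log2 differences are standard errors of the fit. The method was checked on simulated data. Alternatives were a pseudocount of 0.5 or 5 CPM, no filter or at least 5 CPM, quantile or TMM scaling, edgeR 4.0.16 and DESeq2 1.42.0 on recovered reads, a fit of the compared groups alone, and leaving out libraries.

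The 9 genes, the other gene lists and the tests were chosen with earlier results of these data known. All 9 genes were named in full. Other genes were named from the fixed pathway lists, up to 4 called genes with the largest changes per list and comparison, or for their level. Some co-regulators and target genes were instead named because they fell at all 3 days in both the depleted lines and WT, whatever the size of the change. Neighbours were the 20 nearest genes on each side with a mean of at least 10 CPM. Positions and promoters come from GRCm38 annotations. Proteins were not used here. A gene of the uptake and carrier list is counted there but its values are not reported here.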

Additional observations from a re-analysis of the deposited data

Results flagged for a closer look

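Samples far from the others of their group were sought in 55 sets of 4 libraries, where chance alone marks about 1 in 20. Cyp26a1 at KO2 day 5 stood apart in library 4, at 0.709 CPM, with the other 3 at 0. Cyp26a1 at WT day 1 stood apart in library 4, at 0.213 CPM, with the other 3 at 0. Both values rest on so few reads that they lie near or under the limit that a count of 0 allows. With 3 libraries at 0, the rule marks any value above 0 in library 4. The rate of 1 in 20 therefore does not apply to these 2 sets.

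The change from 2iL differed between the depleted lines and WT, by a test of the difference itself with limma on log2(CPM + 1), in 9 cases. Crabp2 differed by −2.37 at day 1, −2.93 at day 3 and −3.91 at day 5. Rarg differed by −0.74 at day 1, −0.59 at day 3 and −0.73 at day 5. Dhrs3 differed by −1.76 at day 5. Crabp1 differed by 1.08 at day 3 and 1.11 at day 5. The cases of 1 gene share their 2iL libraries, so they are not independent of each other.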

How the results depend on the processing

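Alternatives were run for the 17 comparisons of the depleted lines with WT, of each day with 2iL in the depleted lines and in WT, of these changes with each other, and of KO3 with KO2. No alternatives were run for KO2 or KO3 alone against WT or for the steps between other times or within 1 depleted line. In those 17, none of the called differences of the 8 genes changed sign under any alternative. Crabp2 kept its calls against WT over both depleted lines and its differences of change under every alternative and every omitted library run, and lost its rise in the depleted lines at day 1 with a pseudocount of 5 CPM. Among the 8 genes, the number called against WT at day 1 became 1 with quantile normalization and 1 with a fit of the compared groups alone, and at day 5 it became 2 with a pseudocount of 5 CPM. With that pseudocount it became 2 for the depleted lines at day 3 against 2iL, 3 for WT at day 1 against 2iL, 1 for KO3 against KO2 at day 1 and 0 at day 5. The differences of change at day 3 became 1 with DESeq2 and 1 with the compared groups alone, and those at day 5 became 2 with edgeR and 2 with DESeq2. KO3 against KO2 became 1 at day 1 with DESeq2 and with a 5 CPM filter, and 1 at day 5 with edgeR and with DESeq2.

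Omitting 1 library at a time gave 3 calls throughout against WT in 2iL, 0 to 2 at day 1, 1 throughout at day 3 and 3 to 4 at day 5. It gave 1 to 2 for the differences of change at day 3, 3 to 5 at day 5, 0 to 1 for KO3 against KO2 at day 3 and 0 to 3 at day 5. WT against 2iL gave 4 to 5, 5 to 6 and 6 to 7 at day 1, 3 and 5. The Crabp1 difference of change was lost in 7 of 10 alternatives at day 3 and 6 of 10 at day 5, the Rarg one at day 3 in 3 of 10, and the cause was not tested. The median change of all genes moved by more than 0.1 only for WT at day 5 against 2iL, by −0.109 with edgeR and −0.113 with DESeq2. The call of Crabp1 against WT in 2iL missed with the compared groups alone (adjusted p = 0.0513; adjusted p between 0.000149 and 0.0513 over all alternatives).

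No paired analysis was possible because the labels carry no replicate numbers, and the library numbers follow the order of deposition. Depth limits Stra6, Cyp26a1, Rarb and, before day 5, Dhrs3, whose libraries often held fewer than 10 reads.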
